A study of Homo sapiens with 30 samples.

Results

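The 9 genes described here encode the core scaffold proteins of stress granules: G3BP1, G3BP2, CAPRIN1, USP10, UBAP2L, ATXN2, ATXN2L, FMR1 and FXR1. They were chosen by name as known granule proteins from a table of 60664 genes, with earlier results of these data known. The question was whether the mRNAs of the scaffolds are themselves found in granules. Of the 9 genes, 8 had reads, and ATXN2L had a count of 0 in all 30 libraries.

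Stress granules are assemblies of RNA and protein that form in the cytoplasm when translation initiation stalls, as happens when arsenite triggers phosphorylation of eIF2 alpha. G3BP1 and its paralog G3BP2 bind RNA released from polysomes and condense with it. CAPRIN1 binds G3BP and promotes condensation, USP10 competes for the same site and opposes it, and UBAP2L connects G3BP to further RNA-binding proteins. ATXN2 and ATXN2L are ataxin proteins that bind poly(A)-binding protein, and FMR1 and FXR1 encode the translational regulators of the fragile X family. Such proteins act on granules as proteins, so the location of their own mRNAs is a separate measurement.

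The cells were Flp-In T-REx HEK293, an established human embryonic kidney line whose inserted transgene is switched on by tetracycline. The pair of derivative lines each carried GFP-tagged TIA1a, an RNA-binding granule protein, either wild type (WT) or in a mutant form (WDM) named after Welander distal myopathy, a muscle disease. Each genotype is thus represented by 1 line. Cytosol libraries came from both lines untreated, with tetracycline, or with tetracycline plus 0.5 mM sodium arsenite for 60 min (18 libraries in 6 groups of 3). Granule libraries, from a high-speed pellet pulled down through GFP, came from both lines with tetracycline, with or without arsenite (12 libraries in 4 groups of 3). No control pulldown is among the libraries. The word granules below names this fraction. Whether its RNA came from stress granules was not tested, which matters most for cells without arsenite. The labels do not state that replicates were separate cultures, so p-values measure the spread between these samples, which may be technical.

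Total counts per library ran from 7971585 to 18884843 in cytosol and from 5906167 to 27419145 in granules. The 8 detected genes had between 384 and 16031 counts in a library, so counting error was at most 5.10% of a value (Poisson). The HEK293 markers PAX2, NEFL, NEFM, VIM and CDH2 summed to between 901 and 1196 CPM in cytosol and between 532 and 704 CPM in granules. CPM is the usual count per library scaled to a common total. In some libraries 1 of these 5 markers was at 0. The epithelial markers KRT8, KRT18, EPCAM and CDH1 summed to between 274 and 472 CPM in cytosol and between 74.0 and 133 CPM in granules. Markers of blood, endothelium and skeletal muscle summed to at most 3.39 CPM in any library. The TIA1 row held almost no reads in any group, and its span overlaps that of C2orf42 on the same strand, so the transgene could not be checked from it.

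TIA1, the protein through which granules were pulled down, is known to bind U-rich RNA. For that reason the most U-rich stretch of 30 bases in the 3′UTR of the canonical transcript (GENCODE v44, GRCh38) was located for each gene. The stretches of 4 of the 8 genes with reads are shown, written 5′ to 3′ as DNA with every T, which is U in the RNA, in capitals. G3BP2 and CAPRIN1, which were lower in granules in all 4 comparisons described next, are not among them. UBAP2L lies at chr1:154270757-154270786 (plus strand), ATXN2 at chr12:111452701-111452730 (minus strand), FXR1 at chr3:180977064-180977093 (plus strand) and USP10 at chr16:84779446-84779475 (plus strand), all in 3′UTRs.
UBAP2L: TggTTTTTTTTTTgTTTTTTTTTTTTTTTT
ATXN2: TTTcaTTTaTTTTgTTTTTaaaaTaTaTaT
FXR1: TTTTTTTTTTccTTTTTTTTTTTTTTaTTT
USP10: TTTTaTcTTTccTTaaaaaagaaaTTTTTT

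The UBAP2L and FXR1 stretches both held 27 U in 30 bases. That number was reached by 0.0124% of the 27081267 windows in the 3′UTRs of 13459 tested protein-coding genes. Each stretch is the best window of its 3′UTR, however, and gene by gene 96.1% had a best stretch with fewer U. The ATXN2 stretch held 19 U, reached by 0.773% of windows and equal to the median gene's best stretch. FMR1 reached 25, G3BP1, G3BP2 and CAPRIN1 each reached 21, and USP10 reached 16. Without a length correction UBAP2L was higher in granules of tetracycline-treated cells and FXR1 was higher in none, as described next. The part of such stretches in the granule results was not tested. A match of this kind describes the sequence and is not a binding site.

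The mRNAs of the scaffolds did not behave as 1 group in the comparison of granules with cytosol. ATXN2 was higher in granules in all 4 comparisons. G3BP2 and CAPRIN1 were lower in all 4. UBAP2L was higher in granules of tetracycline-treated cells of both lines, and USP10 was higher there in WT cells, while FMR1 passed the test in none of the 4 without a length correction and FXR1 was lower in both arsenite comparisons.

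In the WT line with tetracycline alone, 3 of 8 tested scaffold genes were higher in granules and 3 were lower, where 39.5% of all 18141 genes tested were called higher and 36.2% lower (edgeR quasi-likelihood test, adjusted p under 0.05). With arsenite, 1 was higher and 3 were lower, against 35.0% and 35.5% of all genes. In the WDM line 2 were higher and 2 lower with tetracycline (35.8% and 35.3% of all genes), and 1 was higher and 3 lower with arsenite (36.3% and 35.7%). Most genes thus differed between fractions, and the scaffold genes were called no more often than that background. Their median log2 fold changes were -0.02, -0.02, 0.04 and -0.15, beside medians of 0.07, 0.05, 0.02 and 0.06 over all genes, in the order WT tetracycline, WT arsenite, WDM tetracycline and WDM arsenite.

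**Figure D1:**
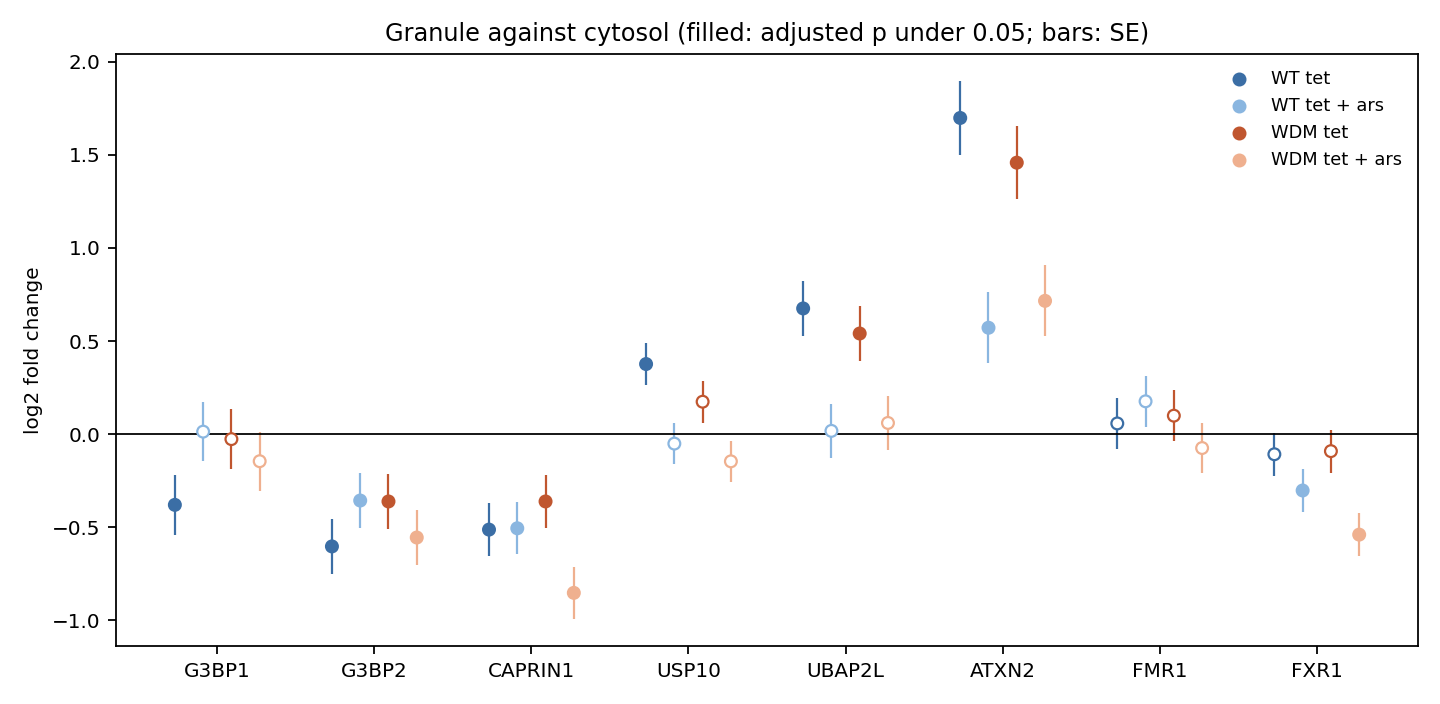
Log2 fold change of granule over cytosol for the 8 scaffold genes with reads (y axis; points are edgeR estimates, bars are standard errors, n = 3 libraries a group). Filled points passed the test at an adjusted p under 0.05. ATXN2 lies above 0 in all 4 comparisons, and G3BP2 and CAPRIN1 lie below 0 in all 4.

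G3BP1 (chr5:151771045-151812911, plus strand), the core condensing protein's gene, was called in 1 of the 4 comparisons. With tetracycline, WT cytosol libraries held 555, 645 and 704 CPM of G3BP1 and WT granule libraries 577, 472 and 463 CPM. The highest granule library lay above the lowest cytosol library, so the groups overlapped, and the log2 fold change was -0.38 ± 0.16 (SE; adjusted p = 0.0328, edgeR). That call was lost when any of cytosol WT tetracycline replicates 2 and 3 or granule WT tetracycline replicates 2 and 3 was left out, with values from -0.53 to -0.29 and adjusted p up to 0.145. In the other 3 comparisons the G3BP1 estimates were 0.01, -0.03 and -0.15 with adjusted p of 0.943, 0.887 and 0.417. With a trend in exon length removed, G3BP1 was called lower in all 4, as given below.

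G3BP2, the paralog, was lower in granules in every comparison. WT cytosol with tetracycline held 145, 162 and 169 CPM, and WT granules held 125, 98.2 and 101 CPM. All 3 granule libraries lay below all 3 cytosol libraries. The log2 fold change was -0.60 ± 0.15 (adjusted p = 0.000661, edgeR). In WDM cells with arsenite it was -0.55 ± 0.15 (adjusted p = 0.00153). The weaker calls were those of WT with arsenite (-0.36, adjusted p = 0.0336) and WDM with tetracycline (-0.36, adjusted p = 0.0318). The first was lost without cytosol WT arsenite replicate 1 or 3 or granule WT arsenite replicate 2 or 3 (values from -0.47 to -0.28, adjusted p up to 0.145), and the second without cytosol WDM tetracycline replicate 2 or 3 or granule WDM tetracycline replicate 1 (-0.44 to -0.23, up to 0.186).

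CAPRIN1, the partner of G3BP that favours condensation, showed the most negative value of the group. In WDM cells with arsenite, cytosol libraries held 451, 472 and 426 CPM and granule libraries 252, 281 and 247 CPM. The groups stood far apart, with a log2 fold change of -0.85 ± 0.14 (adjusted p = 4.95e-06, edgeR). The values were -0.51 in WT cells with tetracycline (adjusted p = 0.00175), -0.51 in WT cells with arsenite (0.0022) and -0.36 in WDM cells with tetracycline (0.0234). The last of these ranged from -0.46 to -0.22 with 1 library left out, and lost its call without cytosol WDM tetracycline replicate 1 or granule WDM tetracycline replicate 1 (adjusted p up to 0.142).

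USP10 (chr16:84699986-84779922, plus strand), the deubiquitinase that counteracts G3BP condensation, differed between fractions in 1 comparison. WT cytosol libraries with tetracycline held 118, 106 and 105 CPM and WT granule libraries 128, 149.8 and 159 CPM. Each granule library exceeded each cytosol library. The log2 fold change was 0.38 ± 0.11 (adjusted p = 0.00353, edgeR). After arsenite the WT value was -0.05 (adjusted p = 0.696), with 132, 133 and 134 CPM in cytosol and 116, 136 and 132 CPM in granules.

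UBAP2L, which recruits further proteins to G3BP, was higher in the granule fraction of both lines with tetracycline alone. WT cytosol with tetracycline held 129, 115 and 125 CPM and WT granules 184, 198 and 224 CPM. WDM cytosol with tetracycline held 119.8, 93.9 and 118 CPM and WDM granules 161, 164 and 159 CPM. In both lines the fractions did not overlap, and the log2 fold changes were 0.68 ± 0.15 (adjusted p = 0.000163, edgeR) and 0.54 ± 0.15 (0.00188). After arsenite they were 0.02 (adjusted p = 0.919) and 0.06 (0.721), with 159, 159 and 172 CPM in WT cytosol and 128, 174 and 195 CPM in WT granules.

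ATXN2, which encodes the polyglutamine protein ataxin-2, was the scaffold mRNA with the highest granule-to-cytosol ratio. WT cytosol libraries with tetracycline held 62.8, 39.7 and 31.1 CPM, and WT granule libraries 137, 162 and 143 CPM. WDM cytosol libraries with tetracycline held 61.1, 41.0 and 58.4 CPM, and WDM granule libraries 209, 117 and 122 CPM. The lowest granule library exceeded the highest cytosol library in both lines. The log2 fold changes were 1.70 ± 0.20 (adjusted p = 1.06e-08, edgeR) in WT cells and 1.46 ± 0.20 (1.89e-07) in WDM cells.

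With arsenite the ATXN2 ratio was smaller, at 0.57 ± 0.19 (adjusted p = 0.00961, edgeR) in WT cells and 0.72 ± 0.19 (0.00156) in WDM cells. WT cytosol then held 79.4, 87.2 and 75.9 CPM against 110.3, 142 and 108 CPM in granules, and WDM cytosol held 107, 95.5 and 78.1 CPM against 185, 155 and 143 CPM. The fractions remained apart in each line. Without granule WT arsenite replicate 2 the WT call was lost (lowest value 0.47, adjusted p = 0.0524). At the level of group means, ATXN2 was ordered from 44.5 ± 16.4 CPM (SD, n = 3) in WT cytosol with tetracycline, through 47.0 ± 3.57, 53.5 ± 10.9 and 57.2 ± 1.97 in the other cytosol groups without arsenite, 80.9 ± 5.76 and 93.7 ± 14.8 in cytosol with arsenite, to between 120.1 ± 18.8 and 161 ± 21.1 in granules. Within the 4 cytosol groups without arsenite no pair set side by side by treatment or line was called different with the main settings. The same held within the 4 granule groups. Other fits did call ATXN2 higher in WDM than in WT cytosol. They were the untreated groups fitted alone, and the tetracycline groups without cytosol WT tetracycline replicate 1 (0.50).

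The fragile X family members differed from ATXN2. FMR1 (chrX:147911919-147951125, plus strand) libraries lay between 70.2 and 105 CPM in cytosol and between 82.5 and 115 CPM in granules, and its log2 fold changes were 0.06, 0.18, 0.10 and -0.07 (adjusted p from 0.248 to 0.711). With a trend in exon length removed it was called lower in all 4, as given below. FXR1, its autosomal relative, was at -0.11 and -0.09 with tetracycline (adjusted p = 0.402 and 0.489). With arsenite, WDM cytosol held 156, 142 and 165 CPM of FXR1 and WDM granules 109, 110.0 and 114 CPM, a difference with no overlap and a log2 fold change of -0.54 ± 0.12 (adjusted p = 0.000153, edgeR). The WT value with arsenite was -0.30 ± 0.12 (adjusted p = 0.0214), which lost its call without cytosol WT arsenite replicate 1 or granule WT arsenite replicate 2 or 3 (-0.39 to -0.26, adjusted p up to 0.082).

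**Figure D2:**
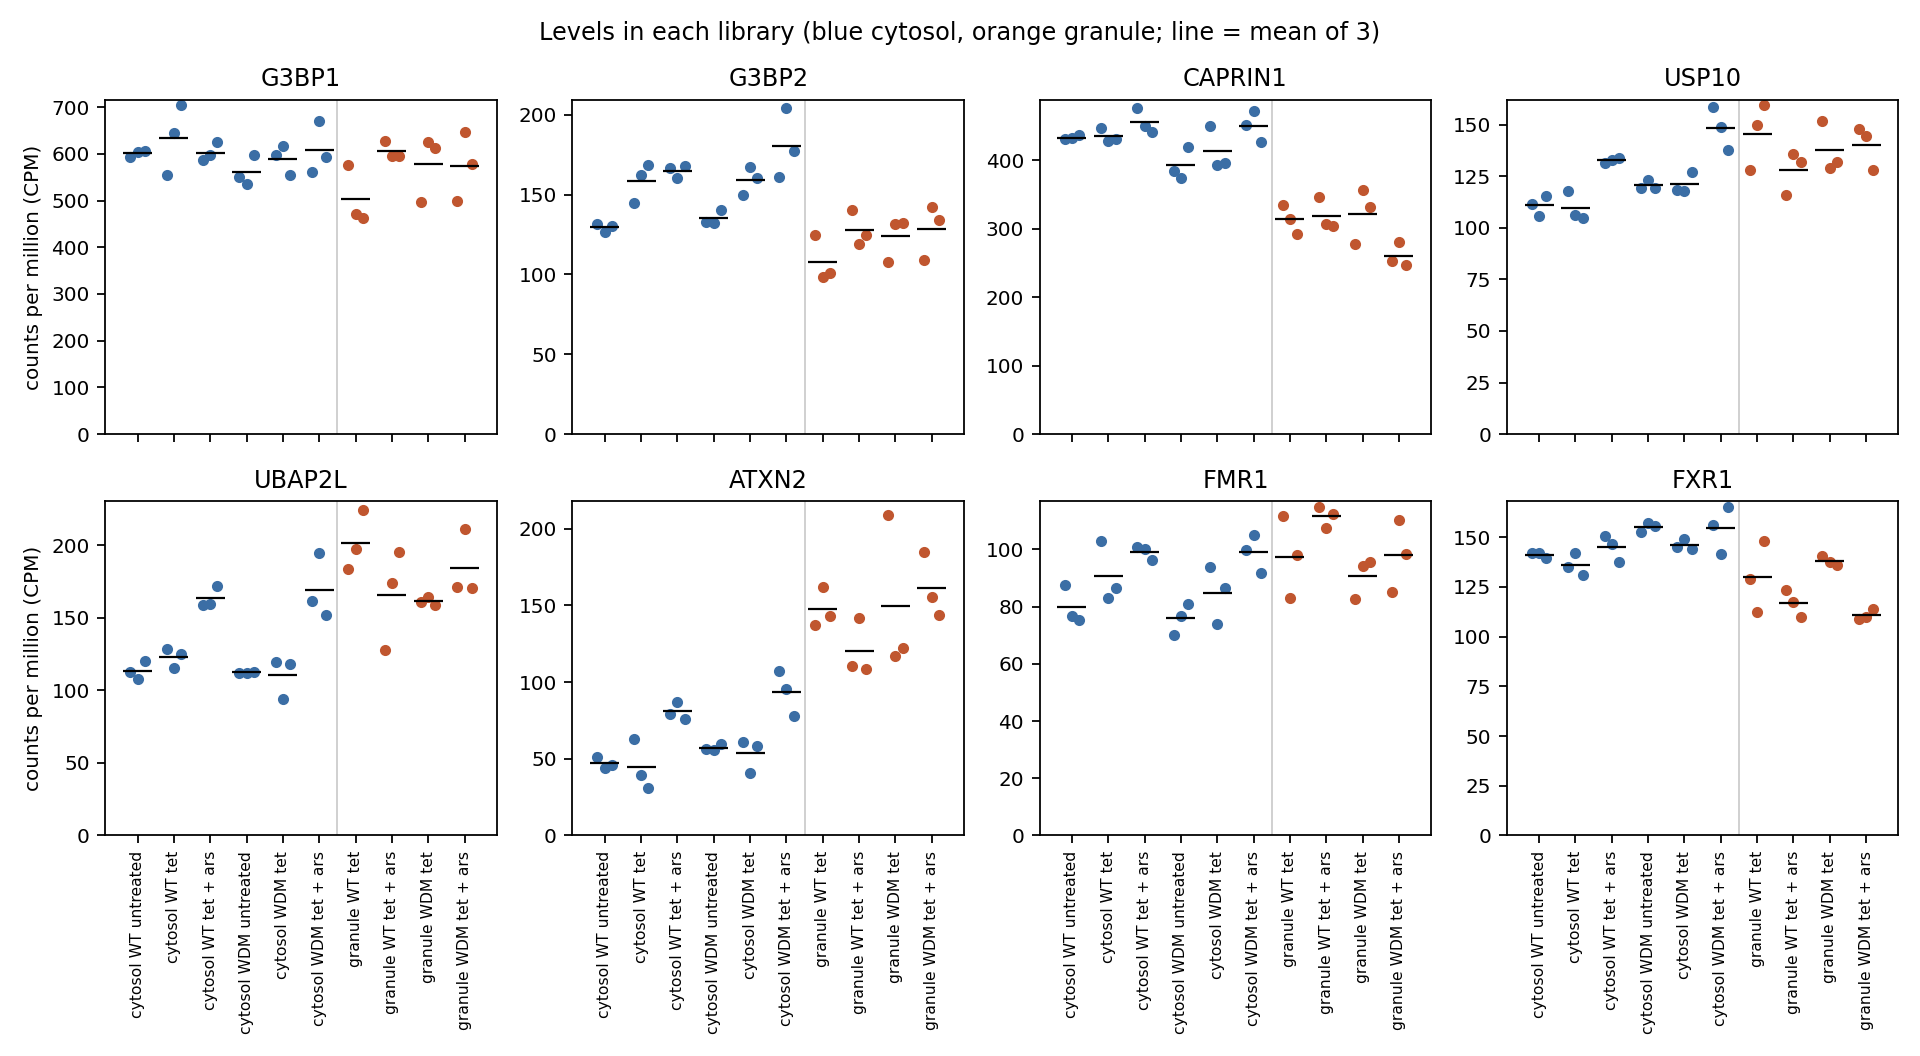
CPM of each of the 8 scaffold genes in every library (y axis, from 0), by group (x axis; tet is tetracycline, ars is arsenite). Blue points are cytosol libraries, orange points are granule libraries and black lines are means of 3. CAPRIN1 granule libraries all lie below its cytosol libraries, and ATXN2 granule libraries all lie above its cytosol libraries.

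The counts behind these values follow whole gene spans. All 629 protein-coding genes that lie wholly inside another gene on the same strand had 0 counts in every library, against 13.4% of 1153 genes inside an opposite-strand gene only and 5.00% of 18160 genes inside none. ATXN2L (chr16:28822999-28837237, plus strand) lies inside the span of ENSG00000288630 (chr16:28341434-29370272), and the 30 other same-strand genes within it, EIF3C and SH2B1 among them, were also at 0. Among the 37 opposite-strand genes there, 11 were at 0. A count of 0 for ATXN2L therefore cannot be told apart from an uncounted transcript. The other 8 genes were not inside a same-strand gene, and reads from their introns can be part of their counts.

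Long genes were higher in the granule fraction as a class. Across 18092 genes the Spearman correlation of the granule-to-cytosol ratio with gene span was 0.49, 0.48, 0.52 and 0.44 in the 4 comparisons (WT tetracycline, WT arsenite, WDM tetracycline, WDM arsenite), and with summed exon length 0.23, 0.31, 0.25 and 0.25. These are descriptions across genes, which are not independent replicates. Genes were therefore sorted into 20 bins of equal size by span, a step added after the data were seen, and each scaffold gene was set beside its bin.

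The ATXN2 gene spans 156192 bp (chr12:111443485-111599676, minus strand), longer than 87.1% of tested genes. Its value of 1.70 in WT cells with tetracycline lay between the quartiles of its bin, which ran from 0.51 to 1.87 with a median of 1.12. With arsenite its value of 0.57 lay below the bin's median of 0.85 and inside its quartiles of 0.29 and 1.25. UBAP2L (51332 bp, chr1:154220179-154271510, plus strand) at 0.68 also lay between its bin's quartiles of -0.66 and 0.89. Relative to genes of like span, neither lay outside the middle of the distribution.

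FXR1 and G3BP2 did stand outside it. FXR1 spans 114613 bp (chr3:180868141-180982753, plus strand), and its values of -0.11, -0.30, -0.09 and -0.54 lay below the lower quartiles of its bin in all 4 comparisons, which were 0.11, 0.08, 0.13 and 0.01. G3BP2 spans 82741 bp (chr4:75641849-75724589, minus strand), and its values of -0.60, -0.36, -0.36 and -0.55 lay below lower quartiles of -0.32, -0.32, -0.25 and -0.39. CAPRIN1 (50880 bp, chr11:34051731-34102610, plus strand) fell below its bin's lower quartile in WDM cells with arsenite, where it was at -0.85 against -0.66. In bins of exon length instead, G3BP1, G3BP2, CAPRIN1 and FXR1 lay below the lower quartile in all 4 comparisons, 4 of 8 genes each time against 2 to 3 by span. No scaffold gene lay above the upper quartile of its bin by either measure.

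**Figure D3:**
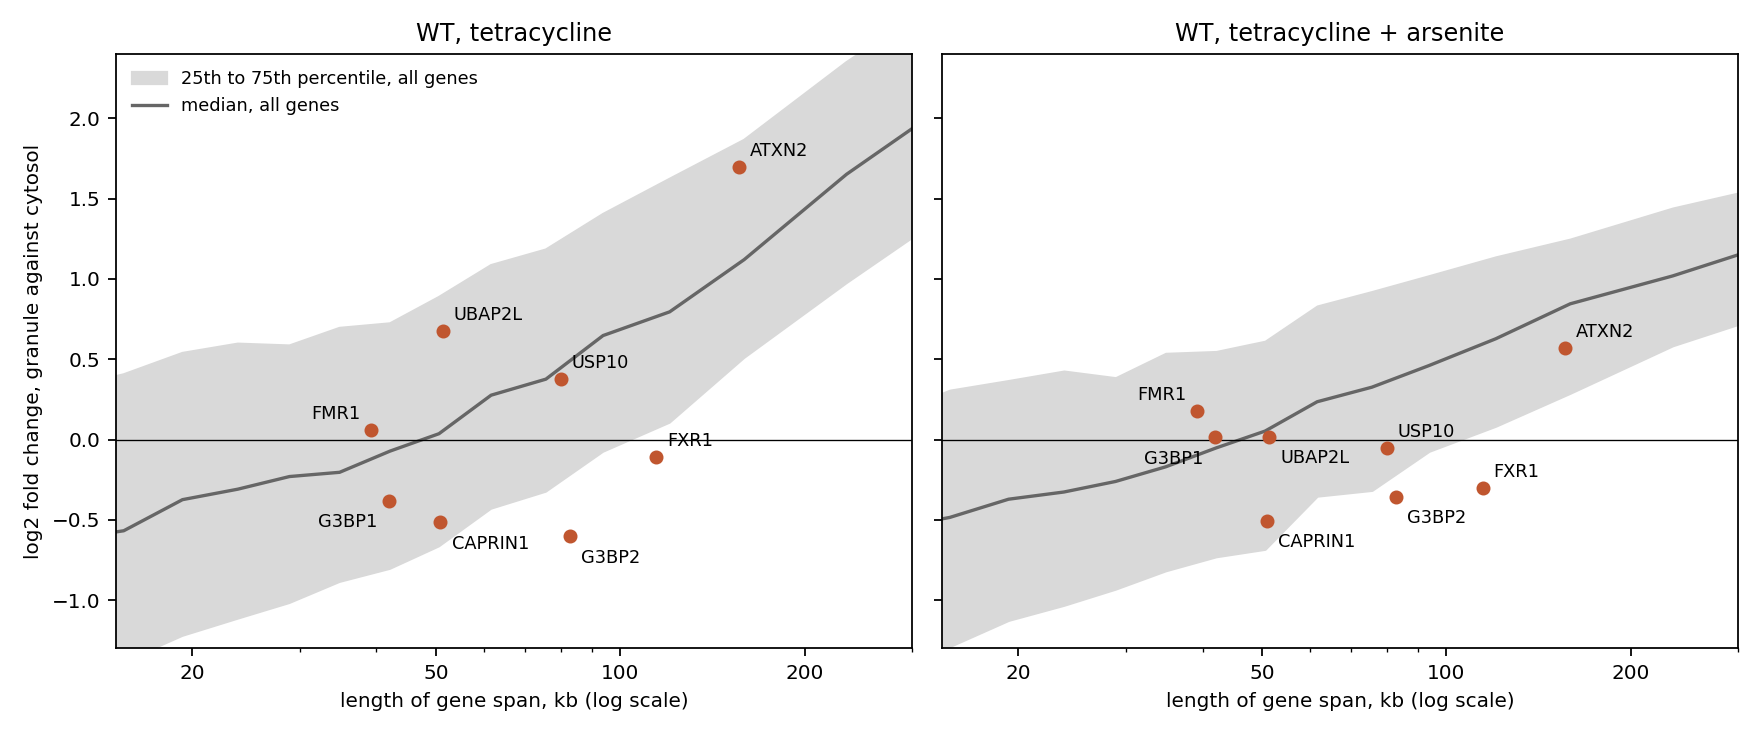
Log2 fold change of granule over cytosol (y axis) against the length of the gene span in kb (x axis, log scale) in the WT line without and with arsenite. Grey bands and lines are the quartiles and medians of all tested genes in 20 bins of span, and orange points are the scaffold genes. FXR1 and G3BP2 lie below the band in both panels, and ATXN2 lies inside it.

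When the trend with gene span was removed from each library (an offset chosen after the data were seen), ATXN2 with tetracycline remained higher in granules, at 0.59 (adjusted p = 0.00052, edgeR) in WT and 0.47 (0.00508) in WDM cells. With arsenite its values became -0.14 (adjusted p = 0.396) and 0.09 (0.582). USP10 in WT cells with tetracycline became -0.14 (0.254), and it was called lower in granules in the other 3 comparisons, at -0.36 (0.00457) in WT cells with arsenite, -0.27 (0.0315) in WDM cells with tetracycline and -0.42 (0.00117) in WDM cells with arsenite. UBAP2L with tetracycline kept both calls, at 0.50 (0.00327) and 0.39 (0.0196), and FMR1 was called higher in WT cells with arsenite, at 0.30 (0.0489). FXR1 became lower in granules in all 4 comparisons, at -0.93, -0.83, -0.80 and -1.002 (adjusted p = 1.92e-07, 1.51e-06, 3.11e-06 and 5.1e-08). G3BP2 and CAPRIN1 kept their sign and their calls in all 4, with G3BP2 between -1.15 and -0.69 and CAPRIN1 between -0.88 and -0.50.

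The exon-length offset gave other calls. In the order WT tetracycline, WT arsenite, WDM tetracycline and WDM arsenite, G3BP1 was called lower in granules at -1.60, -0.81, -1.06 and -0.83 (adjusted p = 1.77e-08, 0.000573, 1.94e-05 and 0.000379, edgeR). FMR1 was called lower at -0.62, -0.30, -0.47 and -0.48 (0.000163, 0.0495, 0.0031 and 0.00249). UBAP2L with tetracycline lost its calls, at 0.29 (0.0761) in WT and 0.23 (0.162) in WDM cells. The calls of G3BP1, FMR1, USP10 and UBAP2L thus depended on which length was corrected for.

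The transcripts themselves differ in their 3′UTRs. The canonical G3BP1 and FXR1 transcripts carry 3′UTRs of 8694 and 6461 bases, longer than 98.1% and 95.5% of 13515 tested protein-coding genes, and neither was enriched in granules. ATXN2 and UBAP2L carry short 3′UTRs of 598 and 552 bases (27.9% and 26.0% of genes are shorter) behind long coding sequences of 3468 and 3264 bases, the latter longer than 88.7% and 87.0% of genes. Across all these genes the Spearman correlation of the ratio with coding length was 0.51, 0.49, 0.51 and 0.47 in the 4 comparisons (WT tetracycline, WT arsenite, WDM tetracycline, WDM arsenite). With 3′UTR length it was 0.24, 0.41, 0.27 and 0.33, and with the percentage of U in the 3′UTR -0.01, 0.05, 0.05 and -0.10. These are descriptions across genes.

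RNAs that are normally retained in the nucleus were also high in the granule fraction. The summed level of NEAT1, MALAT1, KCNQ1OT1, MEG3 and PVT1 was 227 to 965 CPM over cytosol libraries and 2484 to 3829 CPM over granule libraries, and MEG3 was too low to test. All 4 tested members were higher in granules with tetracycline in each line, and 3 of 4 were with arsenite in each line, while all 7 abundant short housekeeping mRNAs were lower in each comparison. In cytosol with tetracycline the nuclear sum moved with ATXN2 between libraries. WT tetracycline replicates 1, 2 and 3 had nuclear sums of 573, 239.9 and 227 CPM beside 62.8, 39.7 and 31.1 CPM of ATXN2, and WDM tetracycline replicates had 712, 366 and 611 CPM beside 61.1, 41.0 and 58.4 CPM. The same order held in WT untreated cytosol (sums of 444, 363 and 393 CPM, ATXN2 at 51.0, 44.2 and 45.8 CPM). It did not hold in full in the other cytosol groups. WDM arsenite cytosol replicates had 965, 632 and 739 CPM beside 107, 95.5 and 78.1 CPM of ATXN2. WT tetracycline granule replicates had 3829, 3040 and 2841 CPM beside 137, 162 and 143 CPM of ATXN2, a different order. WDM tetracycline granule replicates had 3317, 2500 and 2623 CPM beside 209, 117 and 122 CPM of ATXN2, the same order. In both arsenite granule groups the library with the highest sum also had the highest ATXN2, but the other libraries were in the opposite order. The part of nuclear RNA in the ATXN2 results was not tested.

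**Figure D4:**
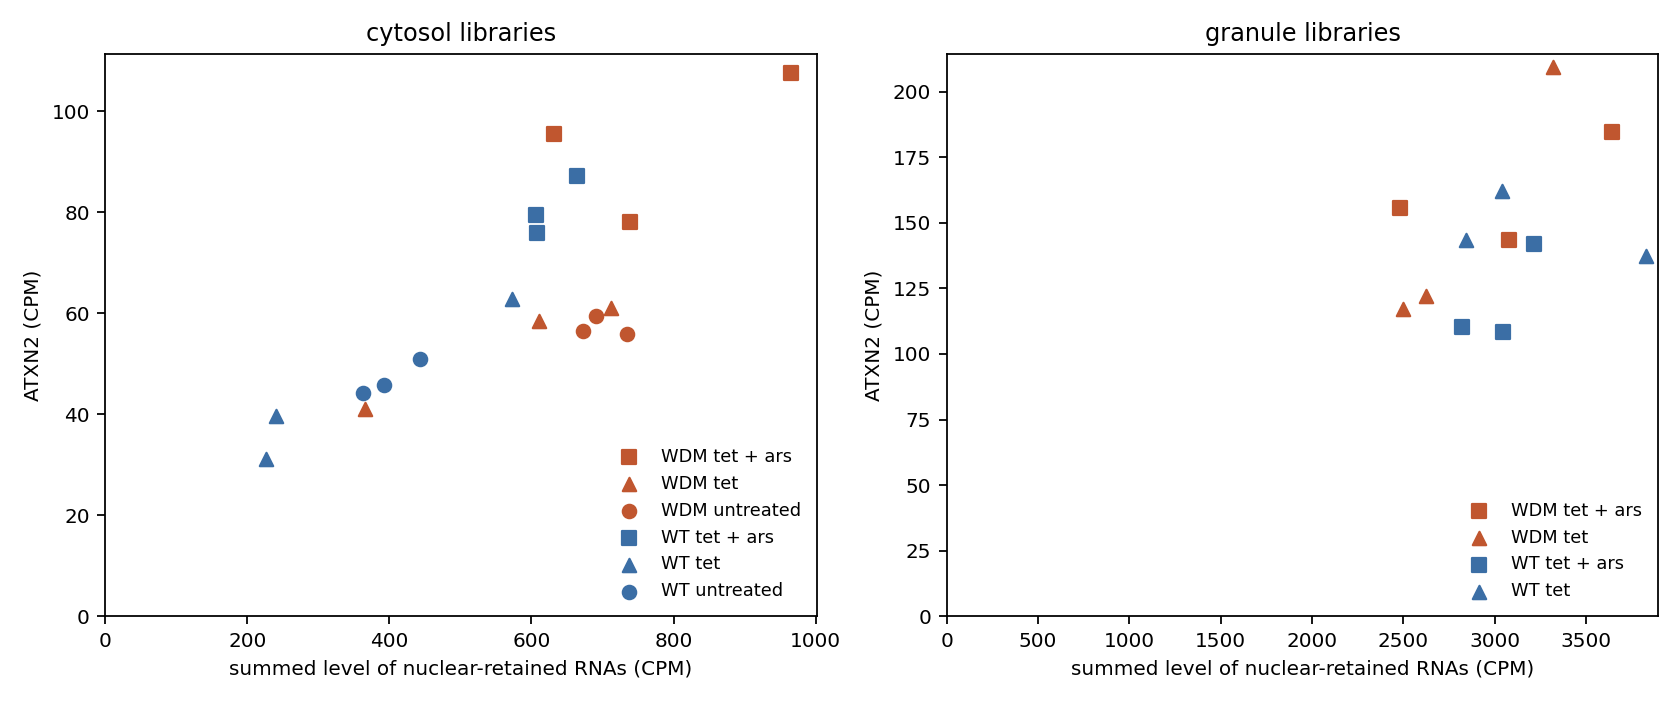
ATXN2 CPM (y axis) against the summed CPM of 5 nuclear-retained RNAs (x axis) in the 18 cytosol libraries (left) and the 12 granule libraries (right), 1 point a library. Blue is the WT line, orange is the WDM line, and shapes mark the treatment. In cytosol the tetracycline libraries with the lowest nuclear sums (227, 239.9 and 366 CPM) also had the lowest ATXN2 (31.1, 39.7 and 41.0 CPM).

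Arsenite changed the cytosol level of ATXN2 and UBAP2L in both lines. Comparing arsenite with tetracycline alone in cytosol, ATXN2 rose by 0.73 ± 0.18 (log2, SE; adjusted p = 0.00636, edgeR) in WT and 0.72 ± 0.18 (0.0068) in WDM cells, and the 3 arsenite libraries lay above the 3 tetracycline libraries in each line. UBAP2L rose by 0.27 ± 0.10 (adjusted p = 0.0397) in WT and 0.53 ± 0.10 (0.000703) in WDM cells. USP10 rose by 0.20 ± 0.06 (adjusted p = 0.0245) in WDM cells, from 118, 118 and 127 to 159, 149 and 138 CPM. No scaffold gene was called lower in cytosol. G3BP1 in WT cytosol was at -0.21 ± 0.10 (adjusted p = 0.128), and without cytosol WT tetracycline replicate 1 it was called lower at -0.33.

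In counts, 2 of 8 scaffold genes rose in WT cytosol, where 13.7% of all genes were higher and 15.4% lower, and 3 of 8 rose in WDM cytosol, where 14.1% were higher and 14.8% lower. The WT call of UBAP2L was lost without any 1 of 5 libraries (cytosol WT tetracycline replicate 2 or 3, or any cytosol WT arsenite replicate), with values from 0.24 to 0.31 and adjusted p up to 0.140. The USP10 call was lost without cytosol WDM tetracycline replicate 1 or 2 or cytosol WDM arsenite replicate 1 or 2 (0.18 to 0.25, adjusted p up to 0.0955). The nuclear-retained sum in cytosol was 606, 665 and 607 CPM with arsenite in WT cells and 965, 632 and 739 CPM in WDM cells, and 3 of 4 and 1 of 4 of its tested members rose. Its part in the rise of ATXN2 was not tested. In these bulk libraries, a change in the share of cells that express a gene and a change in its RNA per cell cannot be told apart.

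In granules the same comparison called 1 gene. No scaffold gene changed in WT granules, where 30.6% of all genes were called (18366 tested), and G3BP1, for one, was at 0.29 ± 0.18 (adjusted p = 0.219, edgeR). In WDM granules FXR1 fell from 140.3, 138 and 136 CPM to 109, 110.0 and 114 CPM, a log2 fold change of -0.38 ± 0.15 (adjusted p = 0.0449), where 18.7% of all genes were higher and 17.7% lower. The FXR1 groups were far apart in CPM, but the call was lost without any 1 of the 6 libraries of this comparison (-0.41 to -0.32, adjusted p up to 0.137), and with the replicate number as a block its adjusted p was 0.0594. CAPRIN1 in WDM granules was close to FXR1, at -0.37 (adjusted p = 0.0749, edgeR), and was called without granule WDM tetracycline replicate 1. ATXN2 was at -0.29 ± 0.18 in WT granules (adjusted p = 0.213) and 0.05 ± 0.17 in WDM granules (0.843).

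**Figure D5:**
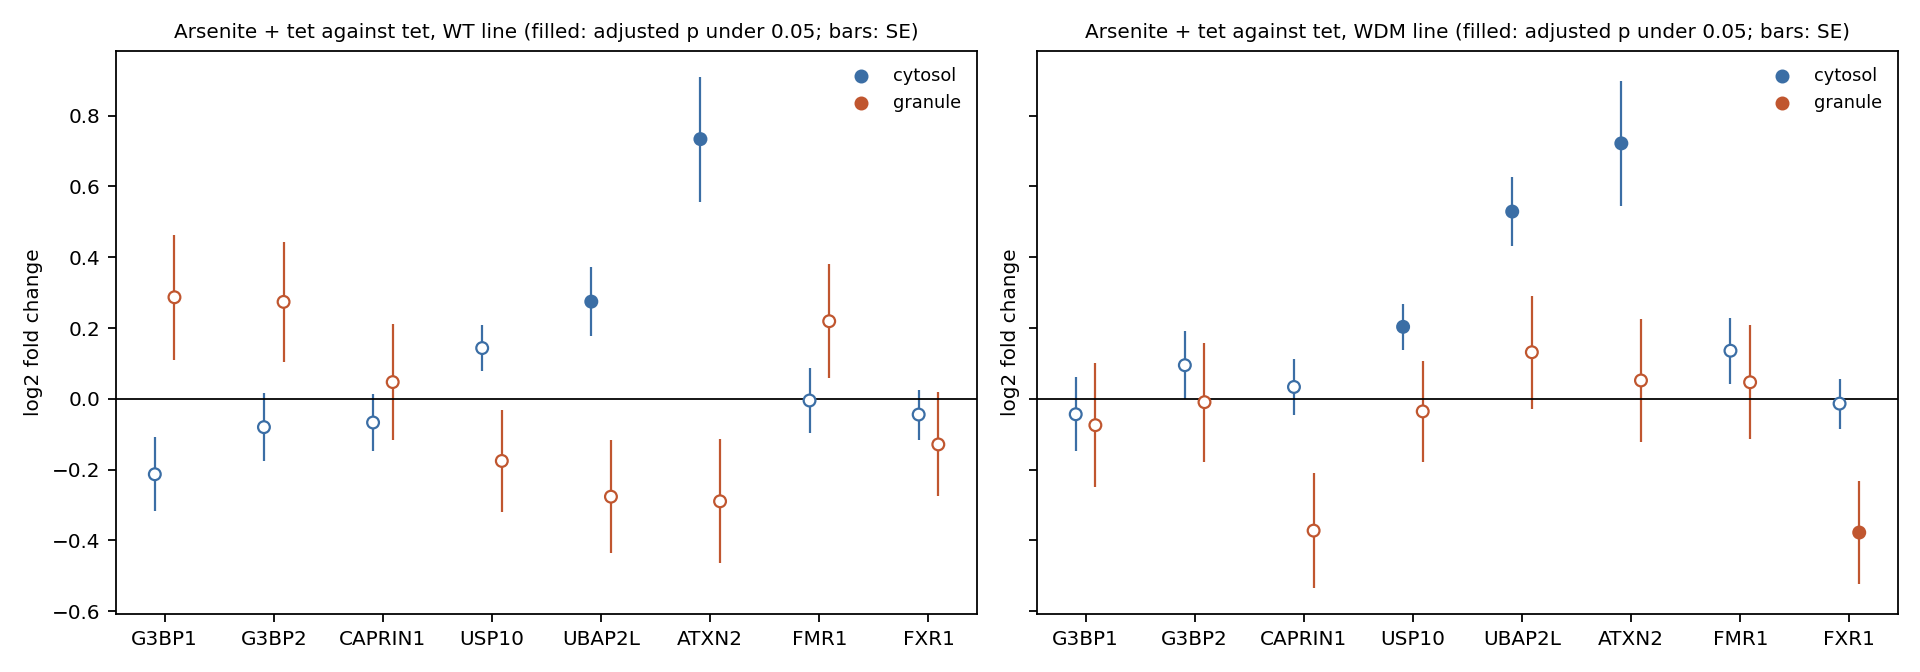
Log2 fold change of tetracycline plus arsenite over tetracycline alone (y axis) for the 8 scaffold genes in cytosol (blue) and granules (orange), WT line left and WDM line right. Points are edgeR estimates, bars are standard errors, and filled points passed the test. ATXN2 and UBAP2L are filled in cytosol in both lines, and FXR1 is the filled granule point.

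The change of the granule-to-cytosol ratio with arsenite was tested as an interaction. In the WT line 3 of 8 scaffold ratios fell, where 12.0% of all genes rose and 19.4% fell and the median gene was at -0.21. They were ATXN2 (-1.13 ± 0.27, adjusted p = 0.00265, edgeR), UBAP2L (-0.66 ± 0.21, 0.0166) and USP10 (-0.43 ± 0.16, 0.0393). In the WDM line 2 of 8 fell, ATXN2 (-0.74 ± 0.27, 0.0458) and FXR1 (-0.45 ± 0.16, 0.0446), where 7.66% of all genes rose and 16.5% fell and the median gene was at -0.17. CAPRIN1 at -0.49 (adjusted p = 0.0701, edgeR) and UBAP2L at -0.48 (0.0915) were not called in the WDM line. Both were called without granule WDM arsenite replicate 2, and CAPRIN1 also without granule WDM tetracycline replicate 1. Relative to the median gene each of the called shifts was smaller than its printed value.

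Of these calls, ATXN2 in WT cells held without any 1 of the 12 libraries (-1.42 to -0.93). UBAP2L was lost without granule WT tetracycline replicate 3 or granule WT arsenite replicate 1 (adjusted p up to 0.0577). USP10 was lost without any 1 library except granule WT tetracycline replicate 1 and granule WT arsenite replicate 2 (-0.52 to -0.36, adjusted p up to 0.107). In WDM cells ATXN2 was lost without cytosol WDM tetracycline replicate 2 or 3, cytosol WDM arsenite replicate 1 or 2, granule WDM tetracycline replicate 1 or granule WDM arsenite replicate 2 or 3 (-0.87 to -0.49, adjusted p up to 0.178). FXR1 was lost without any 1 library except granule WDM tetracycline replicate 1 (-0.49 to -0.37, adjusted p up to 0.151).

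Tetracycline, which induces the transgene, changed 1 scaffold gene in cytosol. G3BP2 rose from 131, 127 and 131 CPM to 145, 162 and 169 CPM in WT cells (log2 fold change 0.34 ± 0.10, adjusted p = 0.0466, edgeR), where 2.93% of all genes were higher and 2.39% lower. That call was lost without any 1 of 5 libraries (any cytosol WT untreated replicate, or cytosol WT tetracycline replicate 2 or 3), with values from 0.27 to 0.43 and adjusted p up to 0.212. In WDM cells G3BP2 was at 0.26 ± 0.10 (adjusted p = 0.113), with 133, 133 and 141 CPM before and 150.0, 168 and 160.3 CPM after, and no scaffold gene was called, where 6.30% of all genes were.

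With the main settings, no scaffold gene was called different between the WDM and WT lines at an adjusted p under 0.05. In untreated cytosol a fit of only the groups compared called 3, as given under the processing checks below. They were ATXN2, higher in WDM cells, and G3BP1 and CAPRIN1, lower in WDM cells. In cytosol 9.78% of all genes differed between the lines untreated, 12.6% with tetracycline and 10.4% with arsenite, and in granules 5.55% with tetracycline and 7.95% with arsenite. Among the scaffold genes the granule value farthest from 0 was CAPRIN1 with arsenite, at -0.39 ± 0.16 (adjusted p = 0.141, edgeR), with 346, 307 and 304 CPM in WT and 252, 281 and 247 CPM in WDM granules, which did not overlap. Next were ATXN2 with arsenite (0.34 ± 0.17, 0.232) and UBAP2L with tetracycline (-0.33 ± 0.16, 0.288). In cytosol the values lay between -0.21 ± 0.10 for UBAP2L with tetracycline (adjusted p = 0.177) and 0.25 ± 0.18 for ATXN2 untreated (0.426). A p that misses the threshold does not show that the lines were alike.

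Line differences of the other effects were tested directly and called no scaffold gene. The difference of the granule-to-cytosol ratio between lines was called for 0.00551% of all genes with tetracycline and for 0.00551% with arsenite, that is 1 gene each. For the arsenite effect, 0% of all genes were called in granules and 0% in cytosol, although 2329 and 331 genes had an unadjusted p under 0.05, and for the tetracycline effect in cytosol 0.0180% were called, with 749 at an unadjusted p under 0.05 (edgeR). For ATXN2 the difference in ratio between the lines was -0.24 ± 0.27 with tetracycline (adjusted p = 0.867) and 0.14 ± 0.27 with arsenite (0.921). For CAPRIN1 with arsenite it was -0.35 ± 0.20 (0.754).

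To compare levels between genes, CPM was divided by the length of the canonical transcript in kb, although reads from introns can be part of the counts. In WT cytosol untreated, CAPRIN1 stood at 78.5 CPM per kb and G3BP1 at 58.8, followed by USP10 at 33.3, G3BP2 at 30.0, UBAP2L at 29.3, FMR1 at 18.0, FXR1 at 16.9 and ATXN2 at 10.8. In WT granules with tetracycline the order was CAPRIN1 at 56.9, UBAP2L at 52.0, G3BP1 at 49.3, USP10 at 43.8, ATXN2 at 34.0, G3BP2 at 25.0, FMR1 at 22.0 and FXR1 at 15.6 CPM per kb. ATXN2 thus stood lowest in untreated cytosol and in the middle in granules with tetracycline, groups that differ in treatment as well as fraction. The ATXN2 gene spans 156192 bp and its canonical transcript 4347 bases, so its place is not a measure of mRNA alone.

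Across the 10 group means (log2 CPM), UBAP2L and ATXN2 moved together with a Pearson correlation of 0.90, USP10 with UBAP2L at 0.87 and CAPRIN1 with FXR1 at 0.82, while CAPRIN1 and ATXN2 were opposed at -0.80 and G3BP1 and G3BP2 stood at 0.71. The genes outside the lists whose profile was most like each were SOCS4, NUDT21 and SIKE1 for G3BP1 (0.91, 0.90 and 0.89), PDE12 for G3BP2 (0.95), KIF11 for CAPRIN1 (0.997), CCT6P3 for USP10 (0.97), NFX1 for UBAP2L (0.98), RBPMS for ATXN2 (0.997), ZNF649 for FMR1 (0.96) and THAP9 for FXR1 (0.98). These are descriptions over 10 groups that share libraries and the difference between fractions.

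The 3 close paralogs outside the list also went in different directions. UBAP2, the paralog of UBAP2L, was higher in granules with tetracycline at 1.07 ± 0.15 in WT (adjusted p = 1.66e-07, edgeR) and 0.84 ± 0.15 in WDM cells (1.07e-05), and it rose in cytosol with arsenite by 0.52 and 0.62 (0.00263 and 0.0007). CAPRIN2, unlike CAPRIN1, was higher in granules with tetracycline, at 0.59 ± 0.15 (0.0008) and 0.40 ± 0.15 (0.0162). With arsenite CAPRIN2 was at -0.23 ± 0.15 (0.156) in WT cells and lower in granules at -0.37 ± 0.15 (0.0252) in WDM cells. FXR2 was lower in granules in all 4 comparisons, from -0.87 ± 0.18 (0.000102) in WT cells with tetracycline to -0.55 ± 0.18 (0.00782) in WDM cells with arsenite.

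Other stress granule protein genes went both ways. Of 29 tested genes (the 30th was TIA1), 15 were higher and 8 lower in WT cells with tetracycline, 14 and 6 with arsenite, and 15 and 8, then 11 and 7, in WDM cells. Over all genes 39.5%, 35.0%, 35.8% and 36.3% were higher and 36.2%, 35.5%, 35.3% and 35.7% lower in the order WT tetracycline, WT arsenite, WDM tetracycline and WDM arsenite. The list's medians were 0.49, 0.27, 0.43 and 0.13, against 0.07, 0.05, 0.02 and 0.06 over all genes. YBX1, a translational repressor, was lower in granules at -2.36 ± 0.17 (adjusted p = 5.42e-13, edgeR). IGF2BP2, an mRNA-binding protein, was higher at 2.07 ± 0.19 (7.02e-11) and TIAL1, the paralog of TIA1, at 1.71 ± 0.17 (6.06e-10). Each of these values is from a single comparison. With arsenite PRRC2A reached 1.87 ± 0.29 (4.16e-06) in WT and 2.05 ± 0.29 (1.17e-06) in WDM cells.

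The genes that start and end the response were mixed. Of 7 eIF2 alpha kinase and phosphatase genes, 1 was higher and 3 lower in WT granules with tetracycline, 3 and 3 with arsenite, and in WDM granules 1 and 4, then 2 and 3, beside the shares of all genes just given. EIF2S1, which encodes eIF2 alpha itself, was lower in WT granules with tetracycline at -1.68 ± 0.16 (adjusted p = 1.54e-10, edgeR). PPP1R15A, the stress-induced phosphatase subunit, rose in cytosol with arsenite by 0.74 ± 0.12 (0.00017) in WT and 0.78 ± 0.12 (0.000123) in WDM cells. Of 8 granule clearance genes, 1 was higher and 4 lower in granules with tetracycline in each line, and 3 were higher and 3 lower with arsenite in each line. In WT cells with tetracycline the autophagy kinase ULK1 was at 1.66 ± 0.15 (3.3e-11) and VCP, the segregase that disassembles granules, at -0.90 ± 0.18 (7.31e-05). BAG3, a co-chaperone, rose in cytosol with arsenite by 0.83 ± 0.15 (0.000687) and 0.92 ± 0.15 (0.00029).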

How the data were processed

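The authors deposited 1 table of raw counts of reads, by gene, for 30 libraries. Per the submitters' processing notes, Trimmomatic, STAR, Picard and featureCounts were used with GRCh38, and per the labels the libraries were stranded and rRNA-depleted. Overlap settings are not given in the sources used here.

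Counts were fitted with edgeR 4.0.16 (robust quasi-likelihood, TMM, filterByExpr with minimum count 10 and total 15), in 3 fits: 24 libraries for fractions (18141 genes), 12 granule libraries (18366) and 18 cytosol libraries (16670). The Benjamini-Hochberg adjustment ran over every gene tested in a fit, and an adjusted p under 0.05 made a call. CPM was computed here from the deposited counts and the library totals. The fits were tested on simulated data in which few genes changed, unlike the comparisons of fractions, where most genes differed. That check does not cover this case. Replicates of a group differed beyond sampling noise (chi-square per degree of freedom from 1.63 to 40.7). A count of 0 allows 0.109 to 0.508 CPM (3 counts, counting error only).

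The same-numbered replicates correlated over 0.1 in every pair in 2 of 15 comparisons (granule against cytosol with arsenite, and arsenite in granules, both in WDM cells). Of 60664 gene IDs, 60463 were found in GENCODE v44 and 56693 had identical coordinates. Members and lists were chosen with earlier results of these data known. All 9 scaffold genes are named, with the paralogs and up to 3 called genes with the largest absolute change of other lists, in comparisons described, and the genes with the highest correlation over group means (at least 10 CPM). Results were recomputed with RLE factors, with library size alone, without the filter, with a replicate block, with only the groups compared, with DESeq2 1.42.0, limma 3.58.1 and length and gene-span offsets, and without each library in turn. The gene-span offset and the span bins were chosen after seeing the data.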

Additional observations from a re-analysis of the deposited data

Results flagged for a closer look

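Some granule-to-cytosol ratios differed between arsenite and tetracycline alone by a direct test of that difference (edgeR interaction). In WT cells the log2 change was -1.13 for ATXN2, -0.66 for UBAP2L and -0.43 for USP10. In WDM cells it was -0.74 for ATXN2 and -0.45 for FXR1, while CAPRIN1 (-0.49) and UBAP2L (-0.48) were not called there. For ATXN2 and UBAP2L the cytosol level rose with arsenite in both lines, and the granule level was not called in either.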

How the results depend on the processing

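Of 30 calls on single scaffold genes, 28 stayed called in the same direction with DESeq2, 25 with RLE factors, 27 with library size alone, 20 with no filter, 22 with only the groups compared and 29 with the replicate block. Of 23 calls between fractions, 22 stayed with limma, 15 with the exon-length offset and 16 with the gene-span offset. Of 210 repeats of a call with 1 library left out, 143 kept it, 67 lost it and none changed sign. Same-numbered replicates correlated over 0.1 in every pair in 2 of 15 comparisons. In 1 of these the replicate block took the number of scaffold genes called for arsenite in WDM granules from 1 to 0, and it moved the count of no other comparison.

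With the gene-span offset USP10 between fractions was -0.14 (WT) and -0.27 (WDM) with tetracycline, and ATXN2 in WT cells with arsenite was -0.14. With the exon-length offset ATXN2 in WT cells with arsenite was -0.15, FMR1 was -0.62 (WT tetracycline), -0.30 (WT arsenite) and -0.47 (WDM tetracycline), and G3BP1 in WT cells with arsenite was -0.81. These last 4 values and USP10 in WDM cells passed the test. All reverse the signs without an offset, and the cause was not tested.

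Between fractions in WT cells with arsenite, 4 scaffold genes were called, 2 with RLE factors, 2 with no filter and 1 to 4 with 1 library left out. In WDM cells with tetracycline the 4 became 2 with no filter and 2 to 4 with 1 library left out. For the change of the ratio with arsenite in WT cells the 3 became 1 with no filter, 1 with the gene-span offset and 1 to 3 with 1 library left out, and with the exon-length offset 2, of which ATXN2 fell and G3BP1 rose (0.80, adjusted p = 0.0265, edgeR). In WDM cells the 2 became 1 with RLE factors, no filter or limma, 0 with library size alone, either offset or only the groups compared, and 0 to 2 with 1 library left out.

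For arsenite in WDM granules, library size alone and no filter also gave 0, and the fits without 1 library 0 to 1. In WT cytosol the 2 genes called for arsenite became 1 with only the groups compared and 1 to 3 without 1 library, and the 1 called for tetracycline became 0 and 0 to 1. Between the lines in untreated cytosol the 0 became 3 (1 higher and 2 lower) with only the groups compared. That fit called 5463 of all genes, against 1631 of 16670 with the main settings. With tetracycline the 0 ranged from 0 to 2, reaching 2 without cytosol WT tetracycline replicate 1. These were ATXN2, higher in WDM cells (0.50), and G3BP1, lower in WDM cells (-0.28).

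With 3 libraries a group and 384 or more counts a gene, the spread between libraries rather than counting error sets the precision here.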

Other observations

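TIAL1, which encodes the paralog of the TIA1 bait, fell with tetracycline in cytosol in both lines. Its mean went from 63.6 to 35.1 CPM in WT cells (log2 fold change -0.82 ± 0.14, adjusted p = 0.00419, edgeR) and from 68.9 to 40.2 CPM in WDM cells (-0.76 ± 0.14, 0.00337). With arsenite TIAL1 rose again in cytosol, by 0.63 ± 0.14 (0.00317) and 0.79 ± 0.14 (0.000533).

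The autophagy kinase gene ULK2 and the small heat shock gene HSPB8, both on the granule clearance list, were lower in the WDM line. ULK2 in untreated cytosol had a mean of 6.69 CPM in WDM and 17.2 CPM in WT cells (-1.39 ± 0.14, adjusted p = 6.95e-07, edgeR), and in granules with arsenite 12.1 and 27.0 CPM (-1.26 ± 0.20, 9.3e-05). HSPB8 in untreated cytosol had a mean of 0.817 CPM in WDM and 3.07 CPM in WT cells (-1.97 ± 0.32, 0.000258). Each genotype is 1 line, so genotype and line cannot be told apart.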
